A study of Homo sapiens with 24 samples.

Results

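The 33 genes described here encode the carriers and enzymes that take glucose into the cell, break it down to lactate or send it through the pentose phosphate pathway, with a few enzymes of gluconeogenesis and glycogen entry. They were listed by name, among the 25992 different gene names on the array, and not by a cut on their measured values. Earlier results of these data were known when the list was made. A gene was read by its brightest probe, and all 33 had a probe and were tested. C12orf5 is the array's older name for TIGAR, and PKM2 stands for the gene now called PKM.

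A549 and H1975 are established human lung adenocarcinoma cell lines, a form of non-small cell lung cancer (NSCLC). Each line received 0.75 mg/ml Pirfenidone, a drug approved for lung fibrosis, or the matching volume of PBS, the vehicle, for 6 h or 24 h. The labels name no other treatment and no engineered allele, so the groups differ by line, agent and time. There were 8 such groups of 3 samples, hybridized singly to 24 one-color Agilent arrays. The labels do not say whether the 3 samples of a group came from separate cultures, so p-values measure the spread between these samples.

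In glycolysis, cells split a glucose molecule in the cytosol and gain ATP and pyruvate, and tumor cells are known for turning much of this pyruvate into lactate even with oxygen present. The pentose phosphate pathway branches off after the first phosphorylation. Its oxidative arm makes NADPH, which feeds antioxidant defence and lipid synthesis, and its non-oxidative arm exchanges sugar phosphates with glycolysis.

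A level below is a probe's log2 signal with the array's 75th percentile subtracted, and a difference is between such levels, so 1 log2 unit is a 2-fold difference. Levels of different genes were not compared, because probes differ in brightness. Tests came from limma, in 1 fit of the 8 groups over 23827 probes, and a gene passed when its p, adjusted by Benjamini-Hochberg over all of these probes, was at most 0.05. Shares of all probes that passed are at this adjusted limit, and no such share was counted at an unadjusted p. In bulk RNA from a culture, fewer cells with a transcript and less of it per cell cannot be told apart.

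The arrays had 62.7% to 69.5% of their probes well above background, and no member's probe was saturated. The keratins KRT7, KRT8, KRT18 and KRT19 were above background on all 24 arrays. NKX2-1, a lung lineage factor, was above background on 12 of 12 H1975 arrays and on 0 of 12 A549 arrays. Of the other lung markers, NAPSA and SFTPC were above background on all arrays of both lines, and SFTPB on 1 A549 and 9 H1975 arrays. The A549 markers ALDH1A1, AKR1B10 and AKR1C1 had medians of 4.43, 7.07 and 6.33 in A549 against -7.16, -1.97 and -2.71 in H1975. CDKN2A had been listed as absent in A549, but was above background on all 12 A549 arrays, with a median level of -1.76 against 2.64 in H1975. In A549 at 24 h the pair of arrays from scanner run 1 (replicate 3 of both groups) stood apart. Its Pirfenidone minus PBS difference had the opposite sign to both other pairs for 21 of the 33 members and for 59% of 18892 probes. No other pair in the 4 drug comparisons did so for more than 10 members. Whether the labels of these arrays are right was not tested, and it bears on every A549 value at 24 h. Leaving the pair out, with no block, changed the call of 1 member, PGM1 between the lines. Values without the pair are given where a call or a range depends on it.

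The first question was how the pathway differed between the lines without the drug. Several isoforms and branches were set at very different levels in PBS. H1975 was higher in HK2, HK1, ALDOC, PGM2 and FBP1, and A549 was higher in PGD, TALDO1, TKT, PFKFB3, C12orf5 and GPI, each by at least 2-fold. Of the 33 members 26 passed, 12 higher and 14 lower in H1975. Over all probes tested 70.1% passed, 37.4% higher and 32.8% lower. With the 2-fold limit 11 passed, against 33.3% of all probes. The median difference over the members was -0.12 log2 units, and over all tested probes it was 0.07. The members' count is read against these shares, which were high over the whole array.

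**Figure D1:**
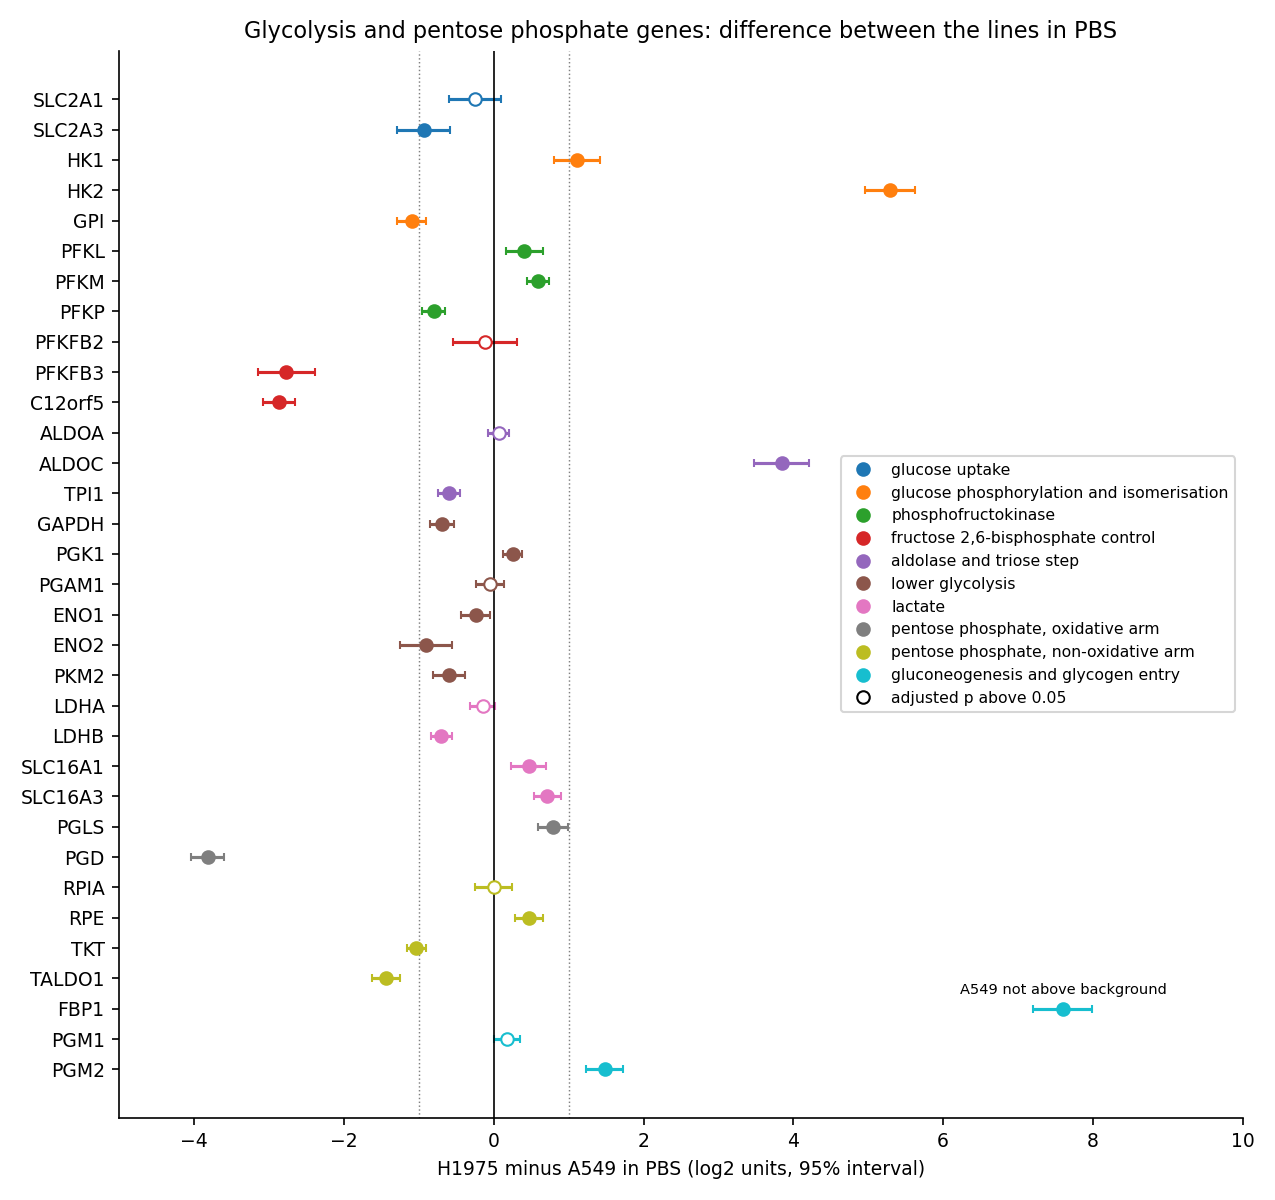
H1975 minus A549 in PBS for the 33 members, in log2 units on the horizontal axis with 95% intervals, colored by role, with 6 arrays per line. Filled points passed and dotted lines mark a 2-fold difference. FBP1, HK2 and ALDOC lie far to the right and PGD, C12orf5 and PFKFB3 far to the left, and FBP1 was not above background in A549.

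The 6 members with the largest differences, 3 in each direction, are shown first by the 250 bases before their transcription start and searched for 2 motifs of factors known to act on this pathway. Sequences are from RefSeq, on build GRCh38.p14, and where a gene had several starts the most upstream one is printed. Capitals mark ACGTG on either strand (CACGT on the other), the core of the hypoxia response element, which overlaps the E-box CACGTG.
FBP1, chr9:94639519-94639768, minus strand: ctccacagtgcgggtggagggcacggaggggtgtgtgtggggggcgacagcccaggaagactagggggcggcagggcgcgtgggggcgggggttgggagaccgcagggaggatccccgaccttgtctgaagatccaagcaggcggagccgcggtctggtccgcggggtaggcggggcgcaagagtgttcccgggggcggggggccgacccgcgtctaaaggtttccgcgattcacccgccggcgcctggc
HK2, chr2:74833877-74834126, plus strand: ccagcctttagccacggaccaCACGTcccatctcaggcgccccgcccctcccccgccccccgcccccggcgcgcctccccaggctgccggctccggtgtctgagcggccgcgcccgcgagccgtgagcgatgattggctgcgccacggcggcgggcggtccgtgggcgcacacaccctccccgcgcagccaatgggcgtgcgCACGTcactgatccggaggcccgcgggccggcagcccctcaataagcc
ALDOC, chr17:28576896-28577145, minus strand: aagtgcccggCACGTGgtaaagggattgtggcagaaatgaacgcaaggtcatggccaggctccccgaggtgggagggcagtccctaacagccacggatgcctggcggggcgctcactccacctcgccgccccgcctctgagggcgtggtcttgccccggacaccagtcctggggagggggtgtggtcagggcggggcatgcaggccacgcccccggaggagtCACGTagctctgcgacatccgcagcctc
PGD, chr1:10398814-10399063, plus strand: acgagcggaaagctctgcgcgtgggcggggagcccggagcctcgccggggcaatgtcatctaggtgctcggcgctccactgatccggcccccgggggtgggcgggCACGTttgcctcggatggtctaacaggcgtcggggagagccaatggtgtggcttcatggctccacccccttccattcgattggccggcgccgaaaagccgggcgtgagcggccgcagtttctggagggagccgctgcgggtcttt
C12orf5 (TIGAR), chr12:4320963-4321212, plus strand: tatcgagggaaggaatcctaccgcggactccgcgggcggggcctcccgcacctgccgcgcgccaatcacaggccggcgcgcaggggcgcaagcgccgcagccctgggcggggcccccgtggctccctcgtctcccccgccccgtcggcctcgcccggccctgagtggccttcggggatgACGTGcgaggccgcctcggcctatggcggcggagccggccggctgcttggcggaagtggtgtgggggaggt
PFKFB3, chr10:6144671-6144920, plus strand: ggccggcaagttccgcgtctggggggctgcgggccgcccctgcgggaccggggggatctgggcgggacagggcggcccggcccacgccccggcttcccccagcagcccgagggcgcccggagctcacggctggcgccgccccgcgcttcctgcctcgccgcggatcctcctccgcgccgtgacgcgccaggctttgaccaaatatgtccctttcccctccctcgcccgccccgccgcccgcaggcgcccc

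ACGTG stood in the printed windows of HK2, ALDOC, PGD and C12orf5, and not in those of FBP1 and PFKFB3. PFKFB3 had 2 windows, and the one not printed held the motif. A total of 30 members matched the promoter table, and 17 of them had the motif in at least 1 window. It was found in 35.1% of the 57 member windows and in 18.5% of all 35116 windows of the same length. TGACNNNGC, the core of the antioxidant response element that NRF2 binds, was in 12.3% of the member windows and in 10.9% of all windows, searched on both strands. PGD and ALDOC were among the 7 members that had it in at least 1 window, and the windows of TKT and TALDO1 did not hold these letters. SLC2A3, PFKFB2 and SLC16A1 were not matched. These matches describe sequence and not binding.

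FBP1, fructose-1,6-bisphosphatase, reverses the phosphofructokinase step in gluconeogenesis. In PBS its level in H1975 was -1.76, -1.10 and -1.14 at 6 h and -0.86, -0.81 and -1.57 at 24 h. In A549 it was not well above background on any array, with measured levels from -9.01 to -8.41. FBP1 was therefore at least 48.3-fold higher in H1975, taking the lowest well-measured signal as the level in A549 (probe at chr9:97365426-97365485, hg19). The limma test compared H1975 with the measured A549 levels, which were not well above background. Its adjusted p of 1.28e-17 therefore does not belong to the 48.3-fold bound, which was not tested.

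HK2, the inducible hexokinase of many tumors, had levels of 1.17, 1.41 and 1.54 at 6 h and 1.65, 1.61 and 1.55 at 24 h in H1975. In A549 the 6 h arrays gave -3.74, -3.44 and -4.18 and the 24 h arrays -3.66, -3.28 and -4.48. The lines were far apart, with every H1975 array above every A549 array, a difference of 5.29 ± 0.16 log2 units (SE) or 39-fold (adjusted p from limma = 2.94e-16, probe at chr2:75120331-75120390, hg19). A second, dimmer HK2 probe, above background on 11 of 24 arrays, gave 1.92, in the same direction. Being below background on most arrays, it does not measure the size.

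ALDOC, the aldolase isoform best known from brain, had levels of -0.84, -0.48 and -0.65 at 6 h and -0.21, -0.13 and -0.01 at 24 h in H1975 PBS. The A549 arrays gave -4.23, -4.57 and -4.46 for 6 h, then -4.41, -4.40 and -3.31 for 24 h. The lines did not overlap, and the difference of 3.84 ± 0.17 log2 units (SE) was 14.4-fold (probe at chr17:26900423-26900482, hg19). ALDOA, the main aldolase of most tissues, differed by 0.07 log2 units (95% interval -0.07 to 0.20) and did not pass.

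PGD, which makes NADPH in the third step of the oxidative arm, ran the other way. In A549 PBS its level was 4.96, 4.98 and 4.84 at 6 h and 5.00, 5.16 and 5.33 at 24 h. In H1975 it was 1.43, 1.03 and 0.92 at 6 h and 1.22, 1.29 and 1.49 at 24 h. All A549 arrays lay above all H1975 arrays, with a difference of -3.82 ± 0.10 log2 units (SE), 14.1-fold (adjusted p from limma = 6.87e-17, probe at chr1:10478911-10478970, hg19).

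C12orf5 (TIGAR) lowers fructose 2,6-bisphosphate and so steers sugar away from glycolysis. Its levels in A549 PBS were -0.60, -0.81 and -1.06 for 6 h, then -0.76, -0.89 and -0.73 for 24 h. H1975 gave -3.83, -3.70 and -3.40, then -3.64, -3.77 and -3.71, so the lines were again separate (difference -2.87 ± 0.10, SE, probe at chr12:4469058-4469117, hg19). PFKFB3, which makes fructose 2,6-bisphosphate and so drives glycolysis, differed in the same direction as C12orf5 although the enzymes act in opposite ways. Its A549 levels were 3.13, 3.36 and 3.12 for 6 h, then 3.32, 3.43 and 2.42 for 24 h. In H1975 it read -0.01, 0.44 and 0.36 for 6 h, then 0.73, 0.58 and 0.08 for 24 h. The lowest A549 array, at 2.42, is replicate 3 of the pair that stood apart, and it was still above all H1975 arrays. The difference was -2.77 ± 0.18 log2 units (SE, probe at chr10:6277062-6277121, hg19), and a second PFKFB3 probe gave -1.10.

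The lines stayed apart for these 6 genes with Pirfenidone included, over 12 arrays each. HK2 ran from -4.48 to -3.28 in A549 and from 1.17 to 2 in H1975, and ALDOC from -4.57 to -3.31 and from -0.84 to 0.42. PGD ran from 4.81 to 5.37 in A549 and from 0.92 to 1.49 in H1975, and PFKFB3 from 2.42 to 3.43 and from -0.01 to 0.93. C12orf5 ran from -1.14 to -0.60 in A549 and from -4.12 to -3.40 in H1975. FBP1 stayed at or under -8.41 in A549 and lay between -2.20 and -0.81 in H1975.

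**Figure D2:**
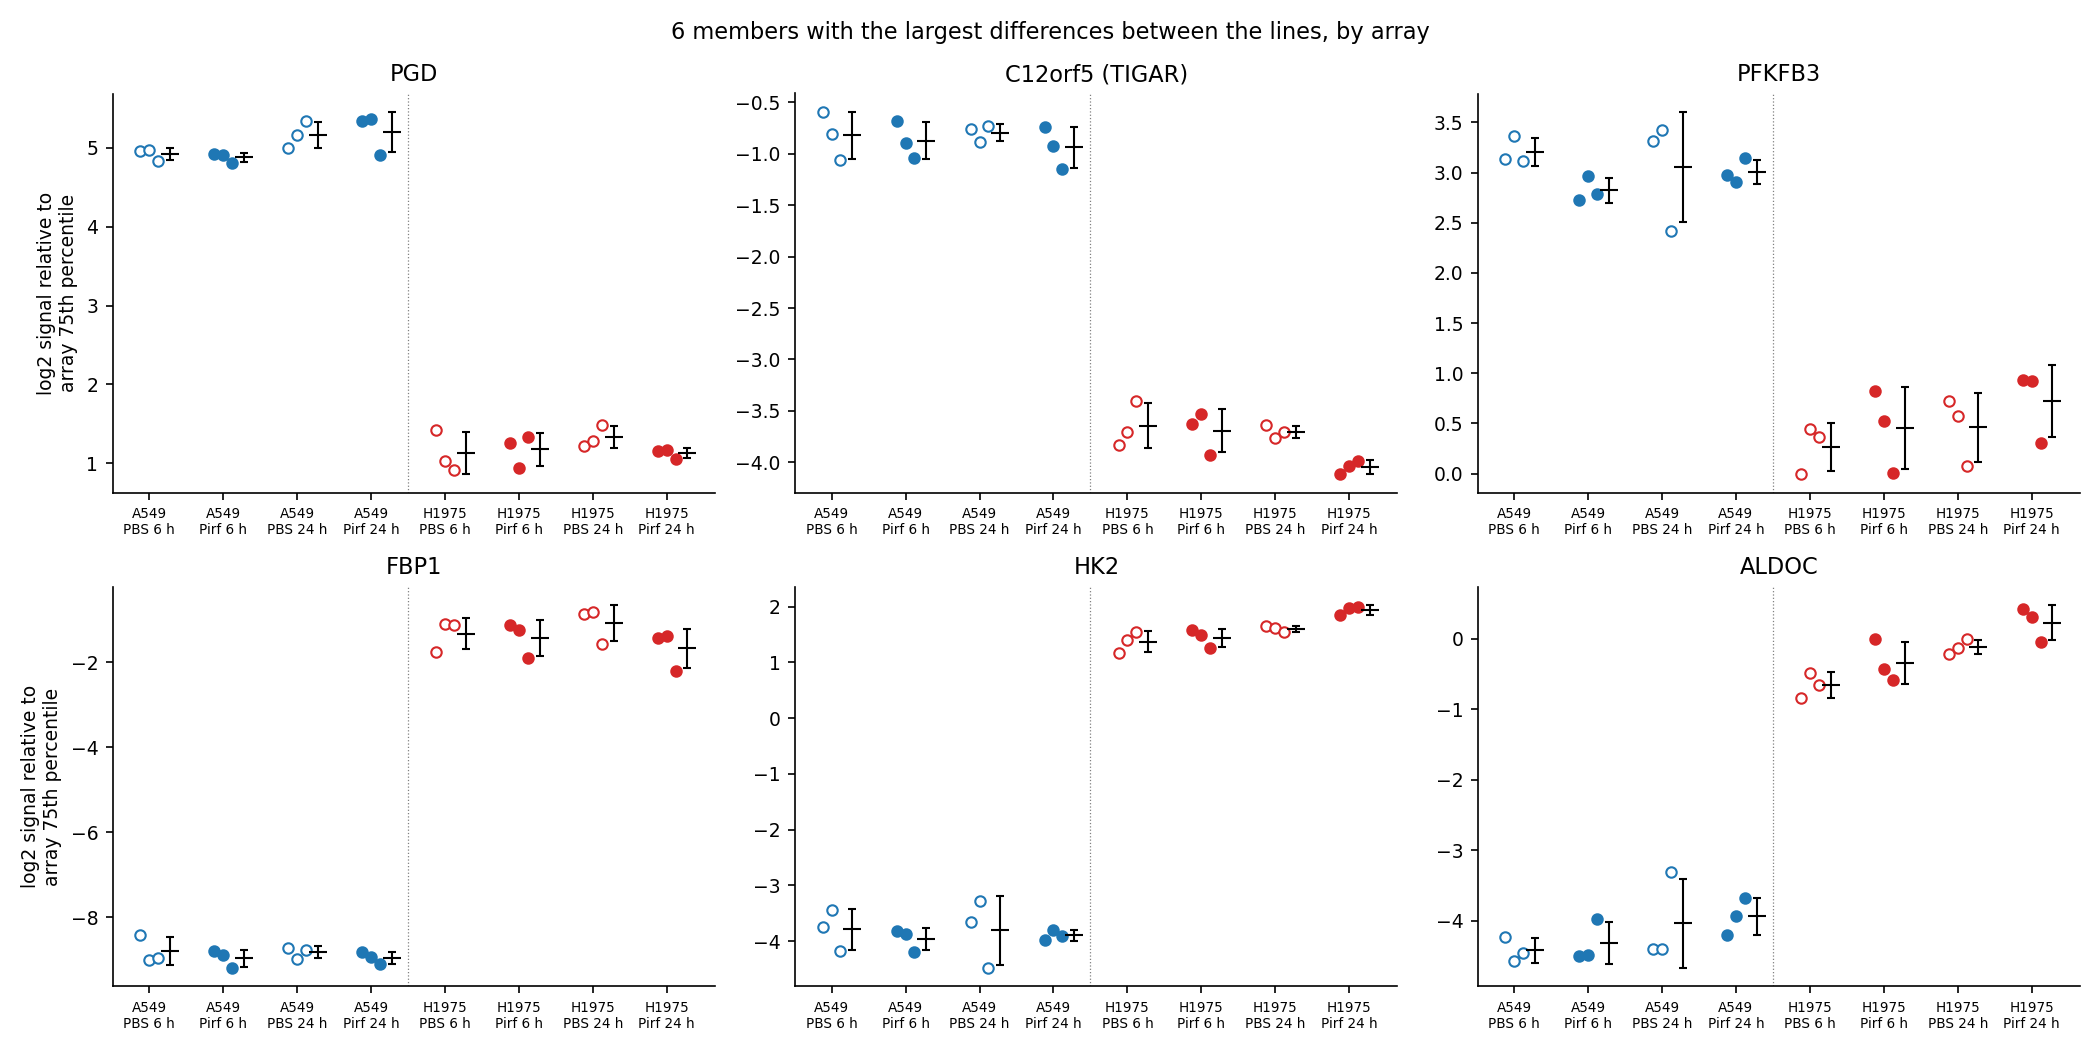
Levels of the 6 members with the largest differences between the lines, in log2 units relative to the array's 75th percentile, for each of the 24 arrays by group. Open circles are PBS, filled circles Pirfenidone, blue A549 and red H1975, and black bars give the mean ± SD of 3 arrays. In each panel the lines are separate, while Pirfenidone and PBS lie close within a line.

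Among the carriers that bring glucose in, SLC2A3 (GLUT3) was lower in H1975 by 0.93 log2 units, a difference of -0.93. Its second probe gave -0.30 with an adjusted p of 0.25 (limma). SLC2A1 (GLUT1) gave -0.25 (95% interval -0.59 to 0.09), or -0.12 without the A549 run 1 pair, and did not pass. At the next steps HK1, the widely expressed hexokinase, was 2.16-fold higher in H1975, and GPI, which turns glucose 6-phosphate into fructose 6-phosphate, was 2.13-fold lower.

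The 3 phosphofructokinase genes, whose products carry out the committed step, all passed and were split. PFKL and PFKM were higher in H1975 by 0.41 and 0.59 log2 units, and PFKP, the platelet isoform, differed by -0.80. PFKFB2, a kinase and phosphatase for fructose 2,6-bisphosphate, gave -0.12 by its brightest probe and 1.73 by a second probe to another transcript, so no direction is given for it.

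Of the 6 genes of lower glycolysis, 4 were lower in H1975, 1 was higher and PGAM1 did not pass. The lower ones were GAPDH (-0.69), ENO1 (-0.24), ENO2 (-0.91) and PKM2 (-0.60), and PGK1 was higher by 0.25. TPI1, which interconverts the triose phosphates, differed by -0.60. ENO1 was the least certain of these: it missed the threshold in 14 of 28 alternative settings, and its within-run differences ran from -0.44 to 0.10.

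For lactate, the dehydrogenase LDHB was lower in H1975 by 0.70, with a difference of -0.70, and LDHA gave -0.15 (95% interval -0.32 to 0.02). The second LDHA probe gave -0.31 and passed (adjusted p from limma = 0.00607), so the probes disagree on the call. The 2 lactate carriers were both higher in H1975, SLC16A1 (MCT1) by 0.47 and SLC16A3 (MCT4) by 0.72 log2 units. PGM2, a phosphoglucomutase that also acts on pentose phosphates, was 2.79-fold higher in H1975, and PGM1, which links glucose to glycogen, gave 0.18 (95% interval 0.01 to 0.35) with an adjusted p of 0.0584 (limma). Without the A549 run 1 pair PGM1 passed, at 0.26 (adjusted p = 0.00189).

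In the pentose phosphate pathway the differences also went both ways. PGLS, the lactonase of the oxidative arm, was higher in H1975 by 0.79 log2 units while PGD was lower. In the non-oxidative arm TKT (transketolase) was 2.05-fold and TALDO1 (transaldolase) 2.71-fold lower in H1975, and RPE, an epimerase, was higher by 0.47. RPIA, the isomerase that makes ribose 5-phosphate, was level, at 0.00 with a 95% interval from -0.25 to 0.25.

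The 6 H1975 arrays and the 6 A549 arrays in PBS did not overlap for 21 members, 10 higher in H1975 and 11 higher in A549, against 50.1% of all probes tested. Both lines were present in runs 1 and 3, which allowed 4 within-run differences per gene. All 4 had the sign of the pooled value for 25 of the 26 members that passed, ENO1 being the exception. The arrays used here also entered the pooled value, so this count is no separate support. The share over all probes was not counted. Each slide carried a single line, so slide and line cannot be told apart. Within slides, Pirfenidone and PBS arrays of 6 h were always at places 1 and 2, and those of 24 h at places 3 and 4. Place on the slide therefore cannot be told apart from agent and time in any drug comparison or comparison of times.

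Neighbouring genes of the pathway were read from lists written for this purpose. Of the 6 other pentose phosphate genes counted here, 2 were lower and 1 higher in H1975. NRF2 is a factor that drives NADPH-making and antioxidant genes. All 11 of its listed targets were lower in H1975, against 32.8% of all probes, with a median of -2.38, and AKR1B10 and AKR1C1 differed most, at -9.21 and -9.39. Both had also been listed beforehand as A549 markers, so their direction here is no separate finding. Whether NRF2 has a part in the PGD, TKT and TALDO1 differences was not tested.

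The largest differences in the other lists lay in genes that respond to glucose and in isoforms of rare use. TXNIP, which restrains glucose uptake, had a level of 3.82 ± 0.28 in H1975 and was above background on 1 of 6 A549 PBS arrays. Its measured A549 levels ran from -9.18 to -5.38. ARRDC4, its relative, was 3.87 log2 units higher in H1975. LDHC, the lactate dehydrogenase of the testis, was higher by 4.43, and ENO3, the muscle enolase, was at 2.15 ± 0.26 in A549 and -1.86 ± 0.44 in H1975. The lists also held 10 genes induced by hypoxia-inducible factor (HIF), of which 6 were higher and 2 lower in H1975, where 37.4% and 32.8% of all probes were.

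**Figure D3:**
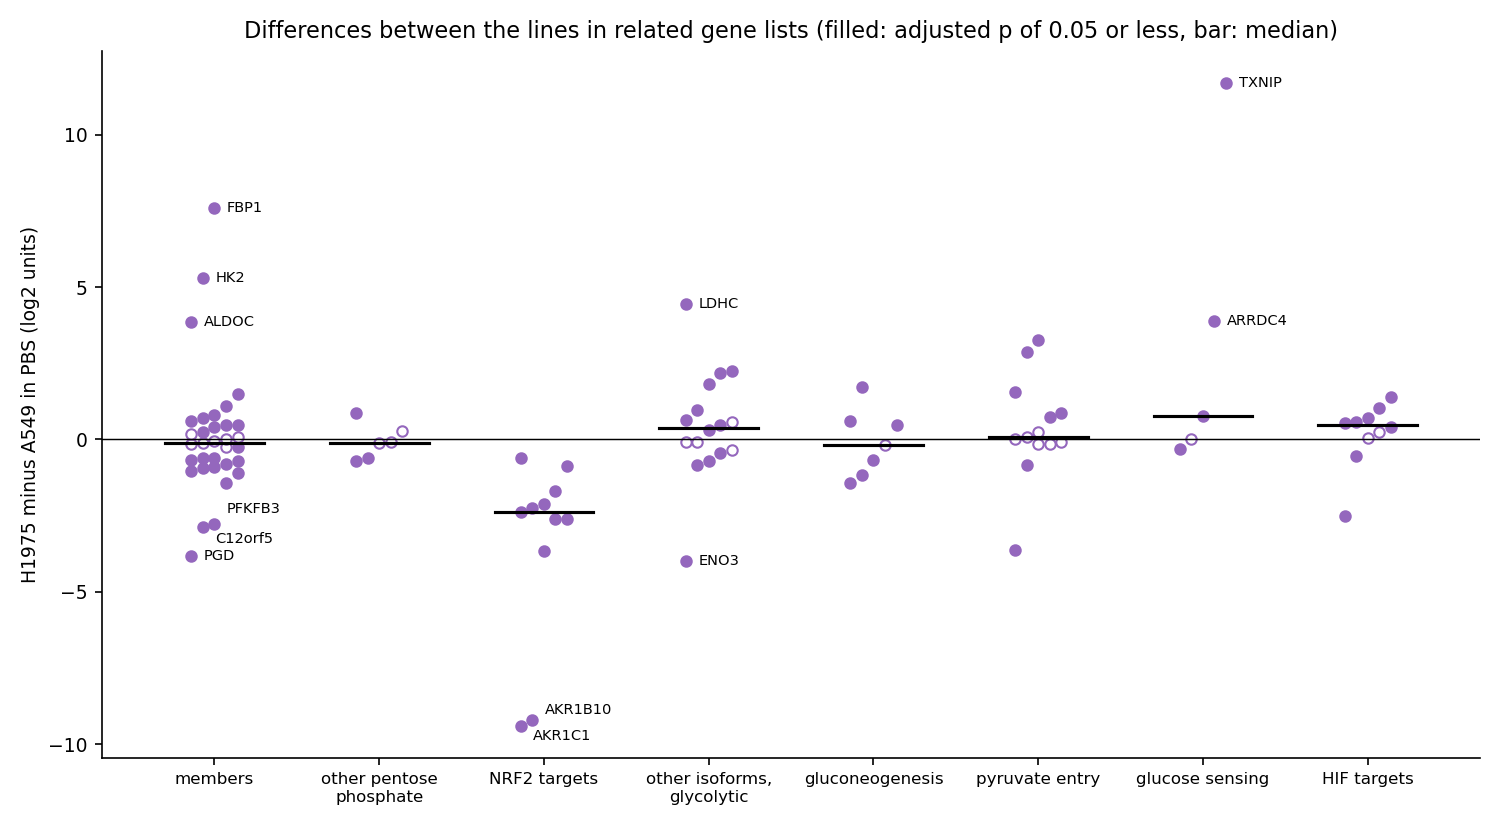
H1975 minus A549 in PBS, in log2 units, for the 33 members and for 7 lists of related genes, with 1 point per gene, filled where the gene passed, and a bar at the median of each list. The NRF2 targets all lie below 0 with a median of -2.38, while the other lists hold genes on both sides of 0.

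The second question was what Pirfenidone did to the pathway. Most members stayed close to PBS, and the changes that passed were few and confined, among the 4 drug comparisons, to H1975. SLC2A3 rose about 2-fold at both times, and at 24 h PGLS rose and PGAM1 fell by smaller amounts. In A549 0 of 33 members passed at 6 h and 0 at 24 h (limma). None of the 33 had an unadjusted p under 0.05 in A549 at either time. A paired t-test on the within-run differences, unadjusted and with a 2-fold limit, called 0. It could call none, because the members' changes in A549 lay between -0.38 and 0.19 log2 units. Over all probes 0.34% passed in A549 at 6 h and 0.0126% at 24 h. In H1975 1 member passed at 6 h, against 1.41% of all probes, and 3 passed at 24 h, 2 higher and 1 lower, against 6.26% (2.91% higher and 3.35% lower). At an unadjusted p under 0.05 (limma) there were 1 member at 6 h and 10 at 24 h in H1975.

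**Figure D4:**
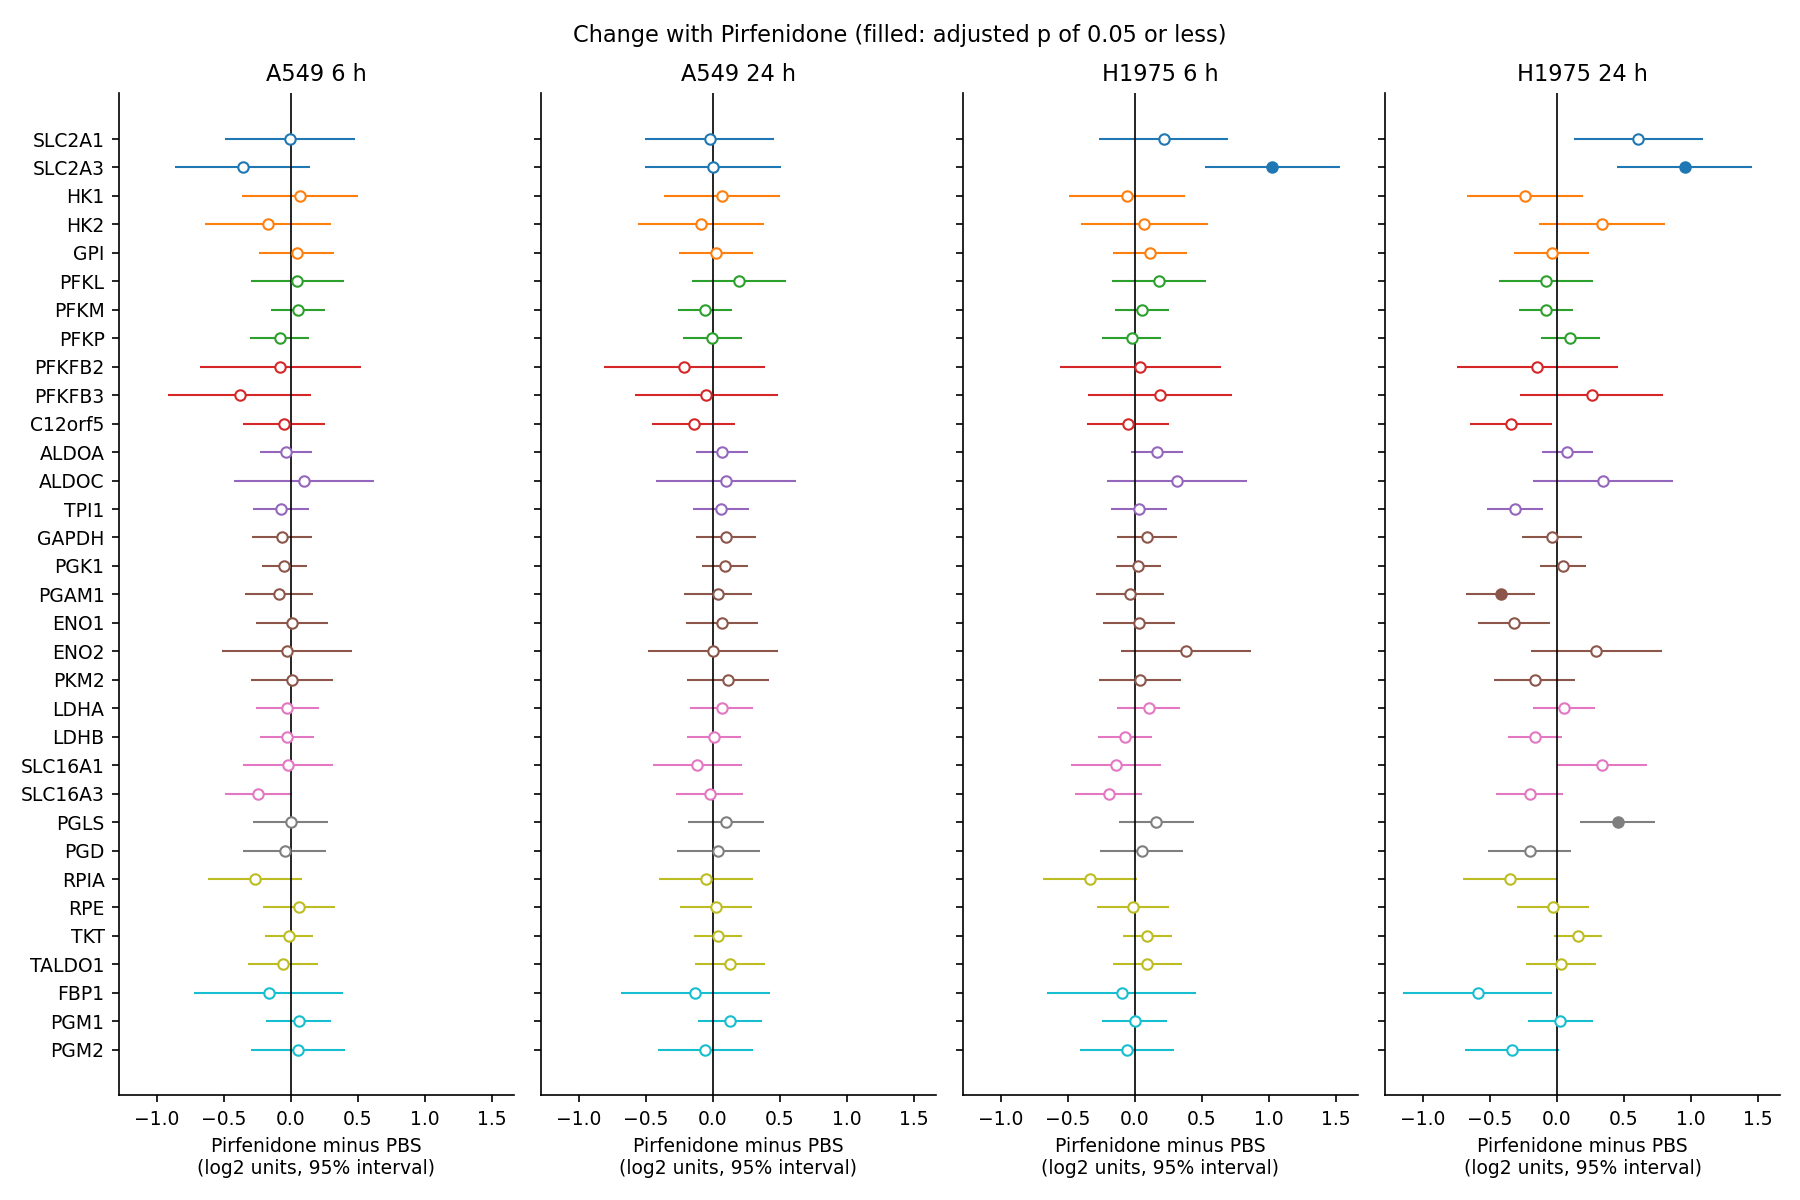
Pirfenidone minus PBS for each of the 33 members in the 4 comparisons, in log2 units with 95% intervals, colored by role as in the plot of differences between the lines, with 3 arrays per group. Filled points passed. SLC2A3 is filled at both times in H1975, PGLS and PGAM1 at 24 h, and no point is filled in A549.

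The members' median change in A549 was -0.03 (6 h) and 0.03 (24 h), where all tested probes gave -0.01 and -0.02. For H1975 the members gave 0.04 and -0.03, and all probes 0.05 and 0.02. The members varied little within a group, with a median SD of 0.15 log2 units against 0.25 over all probes. Their changes in A549 ranged from -0.38 to 0.10 at 6 h and from -0.21 to 0.19 at 24 h. Without the run 1 pair the 24 h range was wider, from -0.43 for PFKFB3 to 0.55 for HK1, and no member passed (limma).

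SLC2A3 encodes GLUT3, a glucose carrier with high affinity. At 6 h its H1975 levels were -4.43, -3.58 and -3.66 in PBS and -2.69, -2.58 and -3.32 with Pirfenidone. At 24 h they were -3.04, -2.94 and -3.31 in PBS and -2.06, -2.13 and -2.25 with Pirfenidone. At both times all treated arrays lay above all PBS arrays. The change was 1.02 ± 0.24 log2 units (SE) at 6 h, 2.04-fold (adjusted p from limma = 0.0376), and 0.95 ± 0.24 at 24 h, 1.94-fold (adjusted p = 0.0247).

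The 3 within-run changes of SLC2A3 came to 0.89, 1.08 and 1.11 for 6 h and to 0.98, 0.81 and 1.06 for 24 h. A second SLC2A3 probe gave 1.24 and 1.02 with adjusted p of 0.0686 and 0.0654 (limma). Without any 1 of 4 arrays at 6 h, or any 1 of 5 at 24 h, the change no longer passed, and with 1 array left out it lay between 0.75 and 1.25 at 6 h and between 0.85 and 1.03 at 24 h. The probe lies at chr12:8072924-8072983 (hg19), and SLC2A14, a near copy of SLC2A3, can share its RNA. The SLC2A14 probe gave 0.89 at 6 h (adjusted p = 0.134) and 0.91 at 24 h (adjusted p = 0.0507).

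In A549 the SLC2A3 levels at 6 h were -2.56, -2.39 and -2.87 in PBS and -2.95, -2.78 and -3.17 with Pirfenidone. At 24 h PBS gave -2.28, -2.27 and -2.99 and Pirfenidone -2.63, -2.58 and -2.31. The groups overlapped at both times, with changes of -0.36 (95% interval -0.86 to 0.15) and 0.00 (-0.50 to 0.51). Within runs the 6 h changes were -0.39, -0.40 and -0.30, and at 24 h the run 1 pair gave 0.68 against -0.36 and -0.32 in the other pairs.

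The change of SLC2A3 was larger in H1975 than in A549 by 1.38 log2 units at 6 h (95% interval 0.67 to 2.10) and by 0.95 at 24 h (0.24 to 1.67). Neither passed (adjusted p from limma 0.266 and 0.234). For the interactions at 6 h and 24 h, 0 of 33 members passed in limma, where 0.0378% and 0.239% of all probes did. At an unadjusted p under 0.05 there were 1 and 4 members. With the scanner run as a block, SLC2A3 passed at 6 h (1.39, adjusted p = 0.0346), where 0.147% of probes did. With the run block and without the A549 run 1 pair, the 24 h interaction was 1.29 (adjusted p = 0.0102), where 0.491% of probes passed. Leaving out the pair with no block gave the same 1.29 and did not pass (adjusted p = 0.279).

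SLC2A1, the other glucose carrier, had H1975 levels at 24 h of 2.686, 2.94 and 3.497 in PBS and 3.486, 3.467 and 3.997 with Pirfenidone. One PBS array lay within the treated range, so the groups overlapped. The change of 0.61 log2 units (95% interval 0.13 to 1.09) did not pass (adjusted p from limma = 0.119), though it was 0.80, 0.53 and 0.50 within runs. With the run as a block it passed (adjusted p = 0.0281).

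PGAM1, phosphoglycerate mutase of lower glycolysis, had H1975 levels at 24 h of 4.99, 5.12 and 5.19 in PBS and 4.79, 4.78 and 4.48 with Pirfenidone. All treated arrays were lower, and the level fell by 0.42 ± 0.12 log2 units (SE), a change of -0.42 (adjusted p from limma = 0.0456). The lowest array was replicate 3, and within runs the changes were -0.20, -0.34 and -0.71. Without that array the fall was smaller, a change of -0.32 with an adjusted p of 0.235 (limma). A second PGAM1 probe gave -0.54 (adjusted p = 0.172). The probe lies at chr10:99192856-99192915 (hg19), and near copies of PGAM1 in the genome can share its signal.

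PGLS, of the oxidative arm, had H1975 levels at 24 h of 5.14, 5.24 and 5.09 in PBS and 5.56, 5.64 and 5.64 with Pirfenidone. The groups did not overlap, and the change was 0.46 ± 0.13 log2 units (SE), 1.37-fold (adjusted p from limma = 0.0476, probe at chr19:17632032-17632091, hg19). Within runs it was 0.42, 0.39 and 0.55. In A549 at 24 h the PGLS levels were 4.23, 4.21 and 4.70 in PBS and 4.46, 4.73 and 4.24 with Pirfenidone, with the run 1 pair again opposite to the others. PGAM1 and PGLS lost their call without any single array of the 24 h comparison, with adjusted p up to 0.235.

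**Figure D5:**
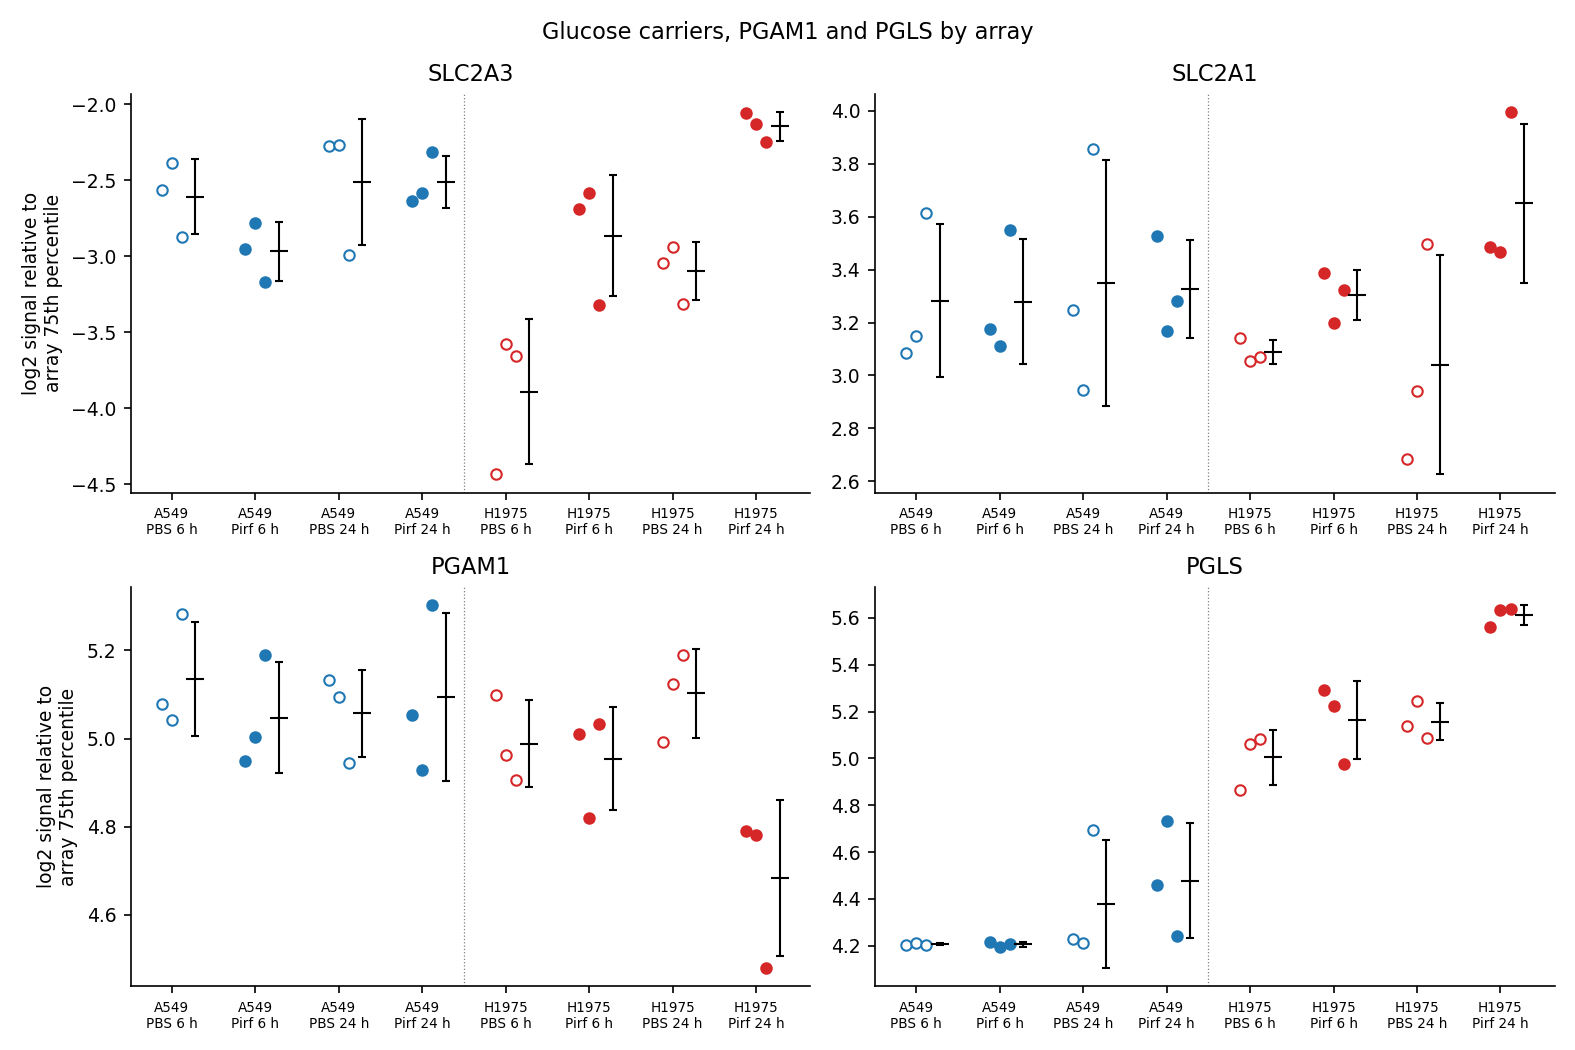
Levels of SLC2A3, SLC2A1, PGAM1 and PGLS in log2 units relative to the array's 75th percentile, for each of the 24 arrays by group. Open circles are PBS, filled circles Pirfenidone, blue A549 and red H1975, and black bars give the mean ± SD of 3 arrays. In H1975 the filled SLC2A3 points lie above the open ones of the same time, from -3.32 to -2.58 against -4.43 to -3.58 at 6 h.

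In H1975 at 24 h the treated and PBS arrays did not overlap for 14 members, 5 higher and 9 lower and the 3 that passed included, against 31.9% of all probes. Of the 9 lower ones only PGAM1 passed. The others were TPI1 (-0.31, adjusted p from limma = 0.0639), ENO1 (-0.32), PKM2 (-0.17), LDHB (-0.17), PGD (-0.20), C12orf5 (-0.34), RPIA (-0.35) and PGM2 (-0.33). Besides SLC2A3 and PGLS, the higher ones were HK2 (0.34), ENO2 (0.30) and TKT (0.16), which did not pass. FBP1 gave -0.59 (95% interval -1.15 to -0.04, adjusted p = 0.191), with within-run changes of -0.57, -0.57 and -0.64. With the run as a block 7 members passed at 24 h, SLC2A1, SLC2A3, SLC16A1 and PGLS higher and TPI1, PGAM1 and FBP1 lower, where 13.2% of all probes did.

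At 6 h in H1975 the arrays did not overlap for SLC2A3, SLC2A1 and ALDOA, higher, and for RPIA, lower, against 17.8% of all probes. SLC2A1 gave 0.21, ALDOA 0.16 and RPIA -0.33 log2 units, and none of these passed. In A549 at 6 h PFKFB3 (-0.38), SLC16A3 (-0.24) and RPIA (-0.27) did not overlap, against 15.3% of all probes, and none passed. In A549 at 24 h no member was without overlap, against 1.83%. HK1 there gave 0.46 and 0.64 in runs 2 and 3 and -0.91 in run 1. With the run as a block and without the run 1 pair it was the only member to pass, at 0.55 (adjusted p = 0.0498), where 1.1% of all probes passed. Without the pair and with no block HK1 did not pass (adjusted p = 0.272).

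The third question was whether culture time or the length of treatment mattered. In PBS 0 of 33 members passed between 24 h and 6 h in either line (limma), where 0.134% and 0.663% of all probes did. At an unadjusted p under 0.05 there were 2 members in A549 and 4 in H1975. In H1975 ENO2, the neuronal enolase, was -2.44, -2.05 and -2.17 at 6 h and -1.27, -1.37 and -1.15 at 24 h. These groups did not overlap, with a difference of 0.96 (95% interval 0.47 to 1.44, adjusted p = 0.0687). SLC2A3 also differed by 0.79 between the PBS groups in H1975 (0.29 to 1.30, adjusted p = 0.156). Both passed with the run as a block (adjusted p = 0.0089 and 0.0224), where 2.87% of probes did. The change with Pirfenidone differed between 24 h and 6 h for 0 of 33 members in either line (limma), where 0.0294% and 0.00839% of probes passed, with 0 and 3 members at an unadjusted p under 0.05. For SLC2A3 in H1975 this difference was -0.07 (95% interval -0.79 to 0.64).

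Among the other pathway genes, few passed with Pirfenidone. PCK2, the mitochondrial enzyme that makes phosphoenolpyruvate for gluconeogenesis, rose in A549 at 6 h from -0.38, -0.67 and -0.64 to 0.46, 0.67 and 0.95. In H1975 it rose from -1.93, -1.42 and -1.65 to -0.29, -0.62 and -0.41 at 6 h, and from -1.458, -1.497 and -1.561 to 0.06, 0.02 and 0.67 at 24 h. The changes were 1.25, 1.23 and 1.75 log2 units, with no overlap (adjusted p from limma = 0.0206, 0.0103 and 4.48e-04). In A549 at 24 h the PCK2 difference was -0.06 (adjusted p = 1), or 0.36 with the run block and without the run 1 pair (adjusted p = 0.44). In H1975 at 24 h HKDC1, a hexokinase-like gene, rose by 0.94 and PFKFB1, the liver form of the kinase, by 0.83 from a very dim signal. SLC2A8, an intracellular sugar carrier, fell by 0.45 and SLC37A4, the glucose 6-phosphate translocase, fell by 0.49.

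Of the 10 HIF targets, 1 rose in H1975 at 6 h and 2 at 24 h, and 0 passed in A549 (limma), with 0 at an unadjusted p under 0.05. The H1975 calls stand beside 1.41% and 6.26% of all probes that passed. At an unadjusted p under 0.05 there were 4 and 6 targets in H1975, a limit at which all probes were not counted. ANKRD37 rose by 1.25 and 0.73 log2 units, and NDRG1 by 1.44 at 24 h. The median of the list was 0.39 at 6 h and 0.63 at 24 h, against 0.05 and 0.02 over all probes. In H1975 PBS the list was also higher at 24 h than at 6 h, without the drug. There the median difference was 0.55, against 0.04 over all probes, and 2 of the 10 passed, against 0.663% of all probes. SLC2A3 is a known HIF target too, and whether HIF has a part in its change was not tested. The NRF2 list had 1 gene higher at each time in H1975, SLC7A11 (1.56 and 2.18), and the pentose phosphate, pyruvate entry and glucose sensing lists had 0 that passed in any drug comparison (limma). At an unadjusted p under 0.05 these lists held at most 3 genes in a comparison. Of the 16 other isoforms and glycolytic genes 0 passed in H1975 at 6 h (limma), and 2 higher and 1 lower passed at 24 h. These counts stand beside the same 1.41% and 6.26% of all probes. At an unadjusted p under 0.05 the list held 7 and 9 genes in H1975 and 0 in A549 at either time. Without the share of all probes at that limit, these counts cannot be read as a trait of the list.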

How the data were processed

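Labels gave each sample's line, agent, time and replicate number. Spot intensity stands in the deposited scanner output, which the authors made with Agilent Feature Extraction version 11.5.1.1, background-subtracted and not normalized between arrays. The authors also deposited log2 values of the same arrays, centered on each probe's median, with column medians from -0.163 to 0.156. These served as an alternative, as the sources used here leave out how arrays were scaled (r with the centered scanner values 0.9988). Here, processed signals were taken to log2, each array's 75th percentile over 43118 spots was subtracted, outliers were dropped and replicate spots averaged.

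Of 34127 probes, 23827 were well above background throughout at least 1 group and went into lmFit and eBayes of limma (version 3.58.1, R 4.3.3, 16 residual degrees of freedom), and the steps were tested on simulated data. Intervals are at 95%. Scanner runs were taken from the scan labels of the files.

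The members and lists were chosen with earlier results of these data known. All members could be named, with every array's value for those that passed with the drug and for the 6 with the largest line differences. Of the other genes, those that passed with the drug and the 3 largest each way between lines could be named, and other names were chosen after their values were seen. Of the lists' other genes, 12 were too dim to test. A further gene of the pentose phosphate list is not reported here and is in no count of that list. The array number limits the precision. Probe positions are those of the files (hg19), and promoter windows are RefSeq's (GRCh38.p14). Probes were not placed within exons, lacking an hg19 annotation.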

Additional observations from a re-analysis of the deposited data

Results flagged for a closer look

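Among the related genes, the change with Pirfenidone at 24 h differed between the lines for PCK2, which was 1.81 log2 units larger in H1975 (adjusted p from limma = 0.025). It also differed for SLC7A11, the cystine carrier, by 2.14 (adjusted p = 0.0224). With the run as a block and without the A549 run 1 pair, the differences were 1.40 and 1.76 and no longer passed (adjusted p = 0.0512 and 0.0672). No member of the 33 passed such a test in the fit without blocks.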

How the results depend on the processing

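The number of members that passed between the lines in PBS lay between 23 and 28 in all settings but 2: it was 18 under Holm adjustment and 11 with a 2-fold limit. In H1975 the drug counts were 1 at 6 h and 3 at 24 h. They became 0 and 0 under normexp background correction and under Holm adjustment, 0 and 1 without the filter on dim probes and when only the compared arrays were fitted. They were 1 and 0 with a 2-fold limit. A paired t-test on the within-run differences with a 2-fold limit gave 1 and 0 unadjusted, and 0 and 0 after Benjamini-Hochberg adjustment. Leaving out 1 array gave 0 to 1 at either time. With the run as a block the 24 h count was 7, and with the slide as a random block it was 8. The run block and the slide block each gave 1 member for the difference between lines at 6 h and 2 for time in H1975 PBS, and the slide block gave 1 for time in A549 PBS. With the run block and without the A549 run 1 pair, an alternative added after the data were seen, 1 member passed in A549 at 24 h and 2 in the difference between lines at 24 h (SLC2A3 at 1.29 and HK1 at -0.79). Without the pair and with no block these counts were 0 and 0, with adjusted p of 0.272 for HK1 in A549 and of 0.279 and 0.255 for the differences of SLC2A3 and HK1, while PGM1 was added between the lines in PBS. No direction was reversed. Normexp moved the median of all probes in H1975 at 6 h to 0.29.

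The authors' processed values gave 3 members in H1975 at 24 h, 1 higher and 2 lower, where the scanner values gave 2 higher and 1 lower. Replicate numbers did not pair the samples throughout. Same-numbered arrays correlated in their deviations at 0.784 to 0.843 in A549 at 6 h and at 0.602 to 0.757 in H1975 at 24 h, where number and run coincide. They correlated at 0.459, 0.0435 and -0.25 in A549 at 24 h, where number and run coincide too, so arrays of the same run gave the same values. In H1975 at 6 h the same numbers gave -0.523, 0.516 and -0.765, and arrays of the same run gave 0.606, 0.82 and 0.882. The replicate number as a block gave 1 and 3 members in H1975, without PGLS (adjusted p = 0.0511), and 1 for time in H1975 PBS against 0 without the block. It moved no other count by over 1.5 times. The cause of these shifts was not tested. FBP1 was not above background in A549, so its difference between the lines is a bound.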
